A study of Arabidopsis thaliana with 28 samples.

Results

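Out of 22746 probe sets on the ATH1 array of Arabidopsis thaliana, 18 had a low signal 6 h after a short drying treatment. At 24 h it was back to at least 0.7 times its level at 0.25 h, the earliest time sampled. Both held in roots as well as in shoots. A probe set is the group of array probes that reports 1 transcript or, in some cases, those of several genes. Its signal is a brightness on a linear scale. The 18 were chosen by their measured signals. Group means were floored at 20 and the 64 AFFX controls were not considered. A probe set then needed a mean of 50 or more at 0.25 h, a 6 h mean of at most 0.5 times that of 0.25 h, and a 24 h mean of at least 0.7 times that of 0.25 h, each in both organs. The values at 0.25, 6 and 24 h are therefore given as a description with no test. Tests were made on the arrays of 0.5, 1, 3 and 12 h, which the choice did not use. The annotation used pairs 4 of the 18 probe sets with 1 gene. The other 14 are given by their probe set ID because they are unnamed in it.

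The plants were wild type Col-0, 16 days old, grown on Murashige and Skoog medium with 16 h of light a day. All of them were treated. From 3 h into the light period they stood for 15 min in a stream of dry air and lost 10% of their fresh weight. They were then held in closed vessels in the climate chamber. Roots and shoots were taken separately at 0.25, 0.5, 1, 3, 6, 12 and 24 h, with 2 arrays for each organ and time, which gives 14 groups and 28 arrays. No untreated plants are among the samples used here, so a change with time after drying and a change with the hour of the day cannot be told apart, and no label gives separate cultures for replicate arrays. The p-values below therefore weigh changes against the scatter of replicate arrays, which may be technical.

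In plants, many transcripts rise and fall once a day under the circadian clock, a loop of transcription factors in which morning genes and evening genes repress each other, and under light. Water loss raises abscisic acid, which drives a separate wave of stress transcripts. Transcripts of morning genes peak soon after dawn and are lowest around dusk. An array measures an RNA level relative to all others on that array, and in whole organs fewer cells that hold a transcript and less of it per cell cannot be told apart.

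Organ labels were checked with genes typical of each organ. Of 14 listed shoot genes 2 could be read. SBPASE, an enzyme of carbon fixation, averaged 19.4 in roots and 2916 in shoots over the 7 times. RCA, Rubisco activase, averaged 119 and 5236. Of 10 listed root genes 2 could be read. EXPA7, a root hair expansin, averaged 42.7 in roots and 9.08 in shoots, and PYK10, an abundant root beta-glucosidase, 3445 and 1101. Median signals were 43.1 to 46.7 on root arrays and 36.6 to 40.3 on shoot arrays, with precision limited by how many arrays there are. The 4 shoot arrays of 0.5 h and 1 h stood apart. Each correlated better with an array of the other time than with its own replicate, which none of the other arrays did. Replicate 1 of 0.5 h paired with replicate 2 of 1 h, and replicate 2 of 0.5 h with replicate 1 of 1 h. For the 18 probe sets, 8 differed by over 1.5-fold between the replicates at 0.5 h as well as at 1 h, and 0 of 18 differed by that much within either pair across the labels. This count was not made over all probe sets, so it is not read as a trait of the 18. Because of the pairing across labels the mean of 0.5 h and 1 h served as the early reference, since it holds all 4 arrays.

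Fewer probe sets met the rule in roots than in shoots. The rule was met by 93 probe sets in roots and by 486 in shoots, so the 18 are 19.4% of the root list and 3.7% of the shoot list. Among the 7187 probe sets that met the limits at 0.25 h and 24 h in both organs, 48 met the 6 h limit in roots and 307 in shoots. Of the 468 probe sets that met the rule in shoots but not in roots, 154 were under 50 in roots at 0.25 h and 307 were bright enough but lay above the 6 h limit. The members closest to the 6 h limit were 267517_at at 0.492 and 252624_at at 0.459 times the 0.25 h mean in the organ with the higher ratio, and the nearest probe sets outside were 260427_at at 0.503 and 249769_at at 0.512. At the 24 h limit 267517_at had the lowest ratio among members, 0.732, and 263777_at lay outside at 0.689. By arrays of replicate 1 alone 20 probe sets met the rule, by arrays of replicate 2 alone 25 did, and 12 of the 18 met it in each replicate alone. The 6 that did not were AT4G15430, AT5G19970, 247232_at, 252624_at, 257262_at and 267517_at.

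**Figure D1:**
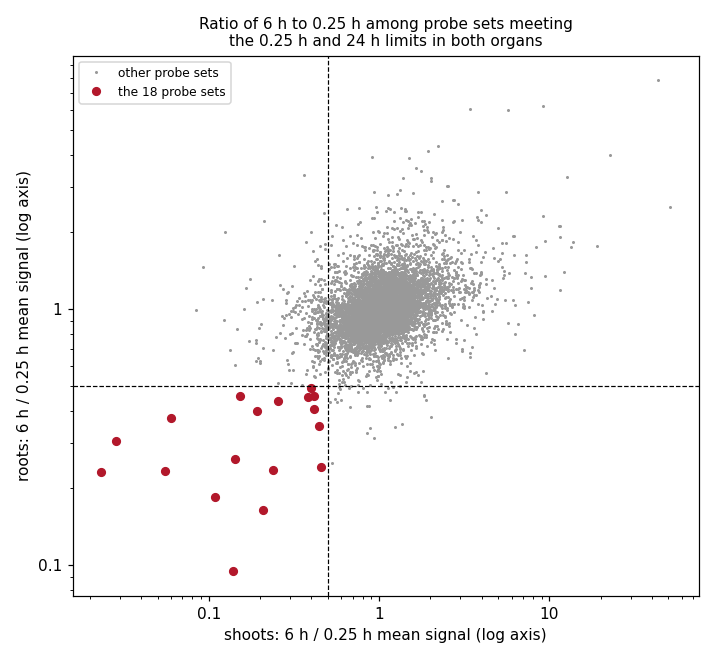
Each point is 1 of the 7187 probe sets that met the 0.25 h and 24 h limits in both organs, with the ratio of the 6 h to the 0.25 h group mean in shoots (horizontal log axis) and in roots (vertical log axis). The 18 chosen probe sets (large points) lie below and left of the dashed lines at 0.5, with ratios of 0.0234 to 0.458 in shoots and 0.0945 to 0.492 in roots.

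The ratio of 6 h to 0.25 h had a median of 0.327 in roots and 0.199 in shoots over the 18, and the ratio of 24 h to 0.25 h a median of 0.978 and 0.987. With group means floored at 20, the highest over the lowest of the 7 times was 2.19-fold to 11.6-fold in roots and 2.61-fold to 45.7-fold in shoots. The lowest mean was under the floor for 6 of the 18 in roots and 8 in shoots, and for these the floored fold is a lower bound. The lowest group mean, read without the floor, fell at the same time in both organs for 14 of the 18 probe sets. It fell at 6 h for 9 of them and at 12 h for the other 5. The rule asked for a low 6 h mean and a recovered 24 h mean in both organs. A shared lowest time at or near 6 h was thus favoured by the choice and is no separate sign that the organs agree. With the floor, 6 h and 12 h were level, at a ratio of 1, in roots for 261569_at, 266719_at and 256266_at. The same held in shoots for 266720_s_at. The plot of signals by time shows both shapes.

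**Figure D2:**
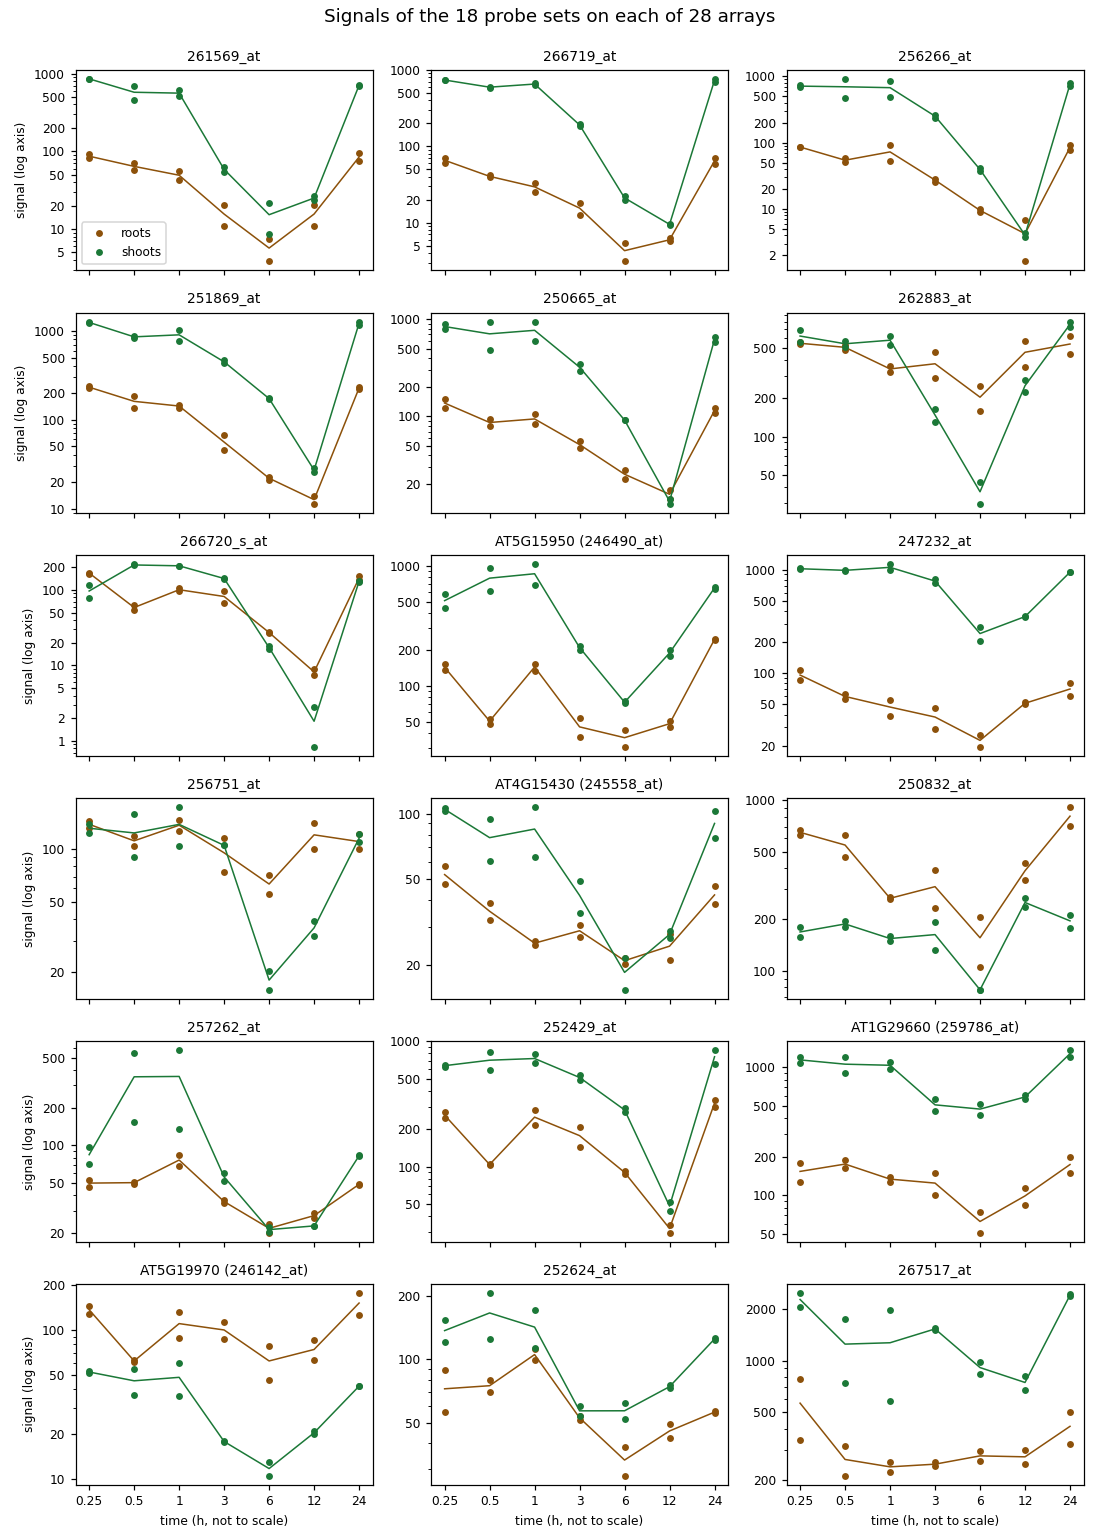
Signal of each of the 18 probe sets (log axis) against time after drying in roots and shoots; points are single arrays, lines join the means of 2 arrays, and panels run from the deepest to the shallowest fall at 6 h, as the mean log2 ratio over both organs. Most panels run high, low and high again, and 251869_at, 250665_at, 256266_at, 252429_at and 266720_s_at are lowest at 12 h in both organs.

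At times the choice did not use, most of the 18 were lower at 3 h and at 12 h than at 0.5 h and 1 h, and none was called higher than at 0.5 h and 1 h at an adjusted p under 0.05 in limma. In roots 7 of 18 fell at 3 h against a background of 3.64% of 18183 tested probe sets called lower, and in shoots 14 of 18 against 13.6%. At 12 h 10 of 18 were lower in roots against 7.85%, and 16 of 18 in shoots against 13.2%. Of all tested probe sets 3.6% in roots and 13.4% in shoots were called higher at 3 h, and 10.3% and 15.8% at 12 h. At an unadjusted p under 0.05 the members counted as higher were 0 in each organ at 3 h, and 0 in roots and 1 in shoots at 12 h. The median log2 change at 3 h was -0.45 in roots and -1.09 in shoots, beside 0.07 and -0.01 over all tested probe sets. At 12 h it was -0.87 in roots and -1.93 in shoots, beside 0.08 and 0.01. The 7 probe sets called lower at 3 h in roots were also lower in shoots, where 1.88% of all tested probe sets were lower in both organs. All 10 called lower at 12 h in roots were lower in shoots, against 3.57%. All 18 passed the filter on low signals, and they did so also when it was read on the groups of 0.5, 1, 3 and 12 h alone.

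The root count at 3 h is less firm than the others. It was 3 without roots 3 h replicate 2, 4 without roots 0.5 h replicate 1, 4 without roots 1 h replicate 1, and 4 when only the 16 arrays of 0.5, 1, 3 and 12 h were fitted. With 0.5 h alone as the early reference, the root calls of AT5G15950, 250665_at, 252624_at and 256266_at at 3 h were lost. Their adjusted p in limma was 0.71, 0.072, 0.24 and 0.11. With 1 h alone that of 250665_at was lost (adjusted p = 0.063). Those of 251869_at, 261569_at and 266719_at were kept with either time alone. Treating the 4 doubtful shoot arrays as 1 group was chosen after seeing the data. With it, the shoot counts were again 14 at 3 h and 16 at 12 h. Without the 4 arrays the root counts were 8 at 3 h and 11 at 12 h.

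**Figure D3:**
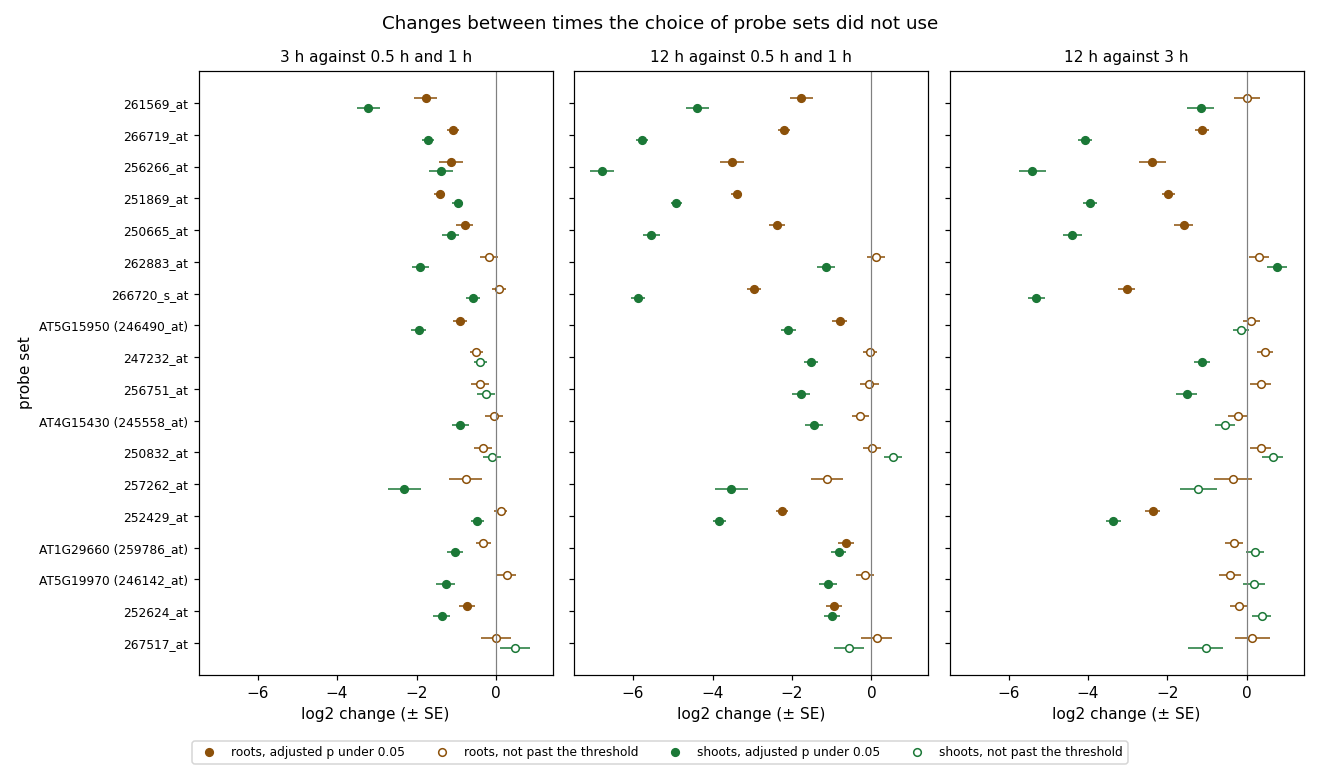
Log2 change ± SE of limma's model for each of the 18 probe sets in roots (upper mark) and shoots (lower mark) at 3 h and 12 h, each set against 0.5 h with 1 h averaged, and at 12 h against 3 h, with 2 arrays per group. Filled marks have an adjusted p under 0.05. They lie left of 0, at lower signal at the later time, except that of 262883_at in shoots at 12 h against 3 h.

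Among the 4 probe sets with a gene, AT5G15950 (246490_at), which encodes an S-adenosylmethionine decarboxylase of polyamine synthesis, fell most. Its root signals were 150.3 and 134 at 0.25 h, 53.2 and 48.1 at 0.5 h, 153 and 133 at 1 h, 53.7 and 37 at 3 h, 30.8 and 42.9 at 6 h, 45.6 and 50.7 at 12 h, and 240.1 and 246 at 24 h. Its shoot signals were 582 and 442 at 0.25 h, 621 and 955 at 0.5 h, 1025 and 691 at 1 h, 200.1 and 216 at 3 h, 73.9 and 71.6 at 6 h, 177 and 198 at 12 h, and 636 and 670.1 at 24 h. The shoot arrays of 3 h and 12 h lay below all 4 early shoot arrays. In roots the arrays of 0.5 h lay among those of 3 h and 12 h and well under those of 1 h. At 3 h the log2 change from 0.5 h and 1 h was -0.91 ± 0.18 in roots (limma, adjusted p = 0.0045) and -1.94 ± 0.18 in shoots (adjusted p = 3.2e-07). At 12 h it was -0.80 ± 0.18 in roots (adjusted p = 0.0049) and -2.09 ± 0.18 in shoots (adjusted p = 7.9e-08). Against 0.5 h alone the root changes were -0.18 at 3 h and -0.07 at 12 h (adjusted p = 0.71 and 0.88), so both root calls were lost with that reference. Without roots 3 h replicate 2 the root change at 3 h was -0.65 (adjusted p = 0.17), and without roots 12 h replicate 1 that at 12 h was -0.73 (adjusted p = 0.064). From 3 h to 12 h it did not pass the threshold in either organ (0.11 ± 0.21 in roots and -0.15 ± 0.21 in shoots).

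AT4G15430 (245558_at) belongs to the ERD family, named for early response to dehydration, whose relatives include calcium channels opened by osmotic stress. In roots its signals were 57 and 47.5 at 0.25 h, 38.5 and 32.2 at 0.5 h, 24.6 and 25.7 at 1 h, 26.9 and 30.5 at 3 h, 20.2 and 21.6 at 6 h, 27.7 and 21 at 12 h, and 46 and 38 at 24 h. In shoots they were 103 and 107 at 0.25 h, 94.5 and 60.3 at 0.5 h, 62.7 and 107 at 1 h, 34.8 and 48.9 at 3 h, 21.6 and 15.3 at 6 h, 26.5 and 28.7 at 12 h, and 103 and 76.8 at 24 h. The root arrays from 1 h to 12 h all lay between 20.2 and 30.5, below those of the other times, and the shoot arrays of 3 h and 12 h lay below the 4 early ones. It fell in shoots by 0.90 ± 0.22 on the log2 scale at 3 h (adjusted p = 0.0045) and by 1.45 ± 0.22 at 12 h (adjusted p = 5.6e-05), with changes of -0.05 ± 0.22 and -0.28 ± 0.22 in roots (adjusted p = 0.93 and 0.42). Without shoots 3 h replicate 1 the shoot change at 3 h was -0.67 (adjusted p = 0.11).

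AT1G29660 (259786_at) encodes a protein of the GDSL esterase and lipase family. Its root signals were 179 and 128 at 0.25 h, 162 and 188 at 0.5 h, 128 and 140.1 at 1 h, 149 and 100.3 at 3 h, 74 and 51.1 at 6 h, 115 and 83.5 at 12 h, and 199 and 149 at 24 h. Its shoot signals were 1073 and 1206 at 0.25 h, 1211 and 899 at 0.5 h, 965 and 1104 at 1 h, 565 and 451 at 3 h, 426 and 515 at 6 h, 605 and 566 at 12 h, and 1191 and 1357 at 24 h. The shoot arrays formed an early set, a lower set from 3 h to 12 h and a high set at 24 h that did not overlap the lower one. It fell in shoots by 1.04 ± 0.20 at 3 h (adjusted p = 0.00055) and by 0.82 ± 0.20 at 12 h (adjusted p = 0.0034). Its root change of -0.32 ± 0.20 at 3 h missed the threshold (adjusted p = 0.39). In roots at 12 h it fell by 0.64 ± 0.20 (adjusted p = 0.029). The root call at 12 h was lost without roots 0.5 h replicate 2 (-0.58, adjusted p = 0.082), without roots 1 h replicate 2 (-0.60, adjusted p = 0.073) and without roots 12 h replicate 2 (-0.41, adjusted p = 0.34). It was also lost with 1 h alone as reference (-0.44, adjusted p = 0.21) and with only root arrays in the fit (-0.64, adjusted p = 0.054).

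AT5G19970 (246142_at), for which no role is given here, was brighter in roots. Its root signals were 144 and 128 at 0.25 h, 60.6 and 63 at 0.5 h, 132 and 87.9 at 1 h, 113 and 86.2 at 3 h, 77.3 and 46.4 at 6 h, 62.8 and 84.9 at 12 h, and 126 and 177 at 24 h. Its shoot signals were 51 and 53.3 at 0.25 h, 36.4 and 54.6 at 0.5 h, 60.2 and 35.9 at 1 h, 18.1 and 17.6 at 3 h, 13 and 10.5 at 6 h, 20.8 and 20 at 12 h, and 42 and 41.8 at 24 h. The shoot arrays of 3 h and 12 h lay below the 4 early ones, and the root arrays of 3 h and 12 h overlapped the early ones. At 3 h the change was 0.27 ± 0.23 in roots (adjusted p = 0.58) and -1.27 ± 0.23 in shoots (adjusted p = 0.00046). At 12 h it was -0.16 ± 0.23 in roots (adjusted p = 0.7) and -1.09 ± 0.23 in shoots (adjusted p = 0.0015).

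Of the 14 unnamed probe sets, 5 had their lowest group mean at 12 h in both organs, and each of these 5 fell from 3 h to 12 h in both organs. They were grouped by their 12 h means, so the direction of this fall was set by the grouping. The values given for it below describe its size and are no separate support. In all, 6 of 18 fell between 3 h and 12 h in roots against a background of 3.56%, and 9 of 18 in shoots against 7.63%. The 6 in roots were among the 9 in shoots, where 1.01% of all tested probe sets were lower in both organs.

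In 256266_at the root signals were 85 and 86.4 at 0.25 h, 58.5 and 50.1 at 0.5 h, 91.3 and 53.5 at 1 h, 25.8 and 28.6 at 3 h, 8.91 and 10.1 at 6 h, 1.62 and 6.84 at 12 h, and 92.4 and 76.9 at 24 h. The shoot signals were 679 and 741 at 0.25 h, 916 and 473 at 0.5 h, 484 and 863 at 1 h, 237 and 264 at 3 h, 41.1 and 37.6 at 6 h, 3.79 and 4.3 at 12 h, and 720.4 and 799 at 24 h. In both organs each step from 1 h to 12 h separated the arrays without overlap, and the arrays of 12 h were among the dim ones, at or under the 30th percentile of their array. The log2 change from 3 h to 12 h was -2.38 ± 0.34 in roots (adjusted p = 0.00047) and -5.40 ± 0.34 in shoots (adjusted p = 3.7e-09). The root value was -1.22 with the larger pseudocount, the 30th percentile of all values, and -3.03 with none.

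In 251869_at the root signals were 239 and 225 at 0.25 h, 187 and 135 at 0.5 h, 137 and 148 at 1 h, 45.5 and 66.4 at 3 h, 22.8 and 21.1 at 6 h, 11.2 and 14 at 12 h, and 221 and 233 at 24 h. The shoot signals were 1224 and 1259 at 0.25 h, 879 and 830.1 at 0.5 h, 769 and 1032 at 1 h, 429 and 466 at 3 h, 171 and 174 at 6 h, 25.9 and 28.4 at 12 h, and 1169 and 1267 at 24 h. The order of times was the same in both organs from 1 h onward, and the 24 h arrays lay close to those of 0.25 h. From 3 h to 12 h the change was -1.98 ± 0.17 in roots (adjusted p = 8.0e-07) and -3.95 ± 0.17 in shoots (adjusted p = 1.1e-11).

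In 250665_at the mean signal was 137 at 0.25 h, 51.3 at 3 h, 25.4 at 6 h, 15.8 at 12 h and 115 at 24 h in roots, and 844, 322, 91.8, 13.4 and 622 at the same times in shoots. At 12 h the root arrays, 14 and 17.6, overlapped the shoot arrays, 12.5 and 14.3, although at 0.25 h the shoot mean was far above the root mean. From 3 h to 12 h it changed by -1.59 ± 0.24 in roots (adjusted p = 0.00074) and by -4.40 ± 0.24 in shoots (adjusted p = 5.3e-10).

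In 252429_at the root signals were 270.4 and 244 at 0.25 h, 105 and 103 at 0.5 h, 281 and 214 at 1 h, 144 and 208 at 3 h, 92.3 and 87.3 at 6 h, 34.4 and 29.7 at 12 h, and 300.4 and 341 at 24 h. The shoot signals were 649 and 628 at 0.25 h, 827 and 585 at 0.5 h, 672 and 784 at 1 h, 491 and 537 at 3 h, 274 and 292 at 6 h, 52.6 and 44.1 at 12 h, and 655 and 849 at 24 h. The root arrays of 0.5 h lay below those of 0.25 h, 1 h and 3 h, a dip that the shoot arrays did not have. At 3 h its change was 0.12 ± 0.16 in roots (adjusted p = 0.75) and -0.47 ± 0.16 in shoots (adjusted p = 0.033, lost in 8 alternatives, among them without shoots 3 h replicate 1 at -0.40 with adjusted p = 0.21). From 3 h to 12 h the change was -2.37 ± 0.18 in roots (adjusted p = 2.6e-07) and -3.36 ± 0.18 in shoots (adjusted p = 4.2e-10).

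The probe set 266720_s_at can share signal with a related gene. Its root signals were 169 and 164 at 0.25 h, 63.1 and 53.7 at 0.5 h, 105 and 96 at 1 h, 67.7 and 95.6 at 3 h, 26.7 and 27.8 at 6 h, 7.52 and 8.91 at 12 h, and 135 and 150.3 at 24 h. Its shoot signals were 115 and 77.8 at 0.25 h, 210.1 and 216 at 0.5 h, 206 and 209 at 1 h, 142 and 141 at 3 h, 16.3 and 18.1 at 6 h, 2.82 and 0.833 at 12 h, and 128 and 131 at 24 h. The 0.5 h arrays lay below those of 0.25 h in roots and above them in shoots, with no overlap in either organ. From 3 h to 12 h the change was -3.03 ± 0.21 in roots (adjusted p = 6.9e-08) and -5.30 ± 0.21 in shoots (adjusted p = 7.0e-12), and with the larger pseudocount the shoot value was -3.34.

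The probe sets 261569_at and 266719_at fell furthest by 6 h in shoots. The root signals of 261569_at were 81.5 and 91.3 at 0.25 h, 58.2 and 69.6 at 0.5 h, 55.7 and 42.6 at 1 h, 11 and 20.1 at 3 h, 7.54 and 3.84 at 6 h, 20.1 and 11 at 12 h, and 93.8 and 74.8 at 24 h. Its shoot signals were 852 and 855 at 0.25 h, 694 and 454 at 0.5 h, 507 and 611 at 1 h, 54.3 and 62.8 at 3 h, 8.68 and 21.9 at 6 h, 23.8 and 26.2 at 12 h, and 717 and 694 at 24 h. Most of its fall was over by 3 h, when the change from 0.5 h and 1 h was -1.77 ± 0.29 in roots (adjusted p = 0.00078) and -3.22 ± 0.29 in shoots (adjusted p = 1.7e-07), the largest 3 h change among the 18 in each organ.

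In 266719_at the root signals were 70.5 and 60.7 at 0.25 h, 41.7 and 39.1 at 0.5 h, 33.5 and 25.3 at 1 h, 12.8 and 18.3 at 3 h, 3.11 and 5.48 at 6 h, 6.23 and 5.7 at 12 h, and 59.1 and 69.7 at 24 h. The shoot signals were 736 and 739 at 0.25 h, 606 and 582 at 0.5 h, 631 and 674 at 1 h, 182 and 199 at 3 h, 22.3 and 19.9 at 6 h, 9.27 and 9.74 at 12 h, and 700.4 and 765 at 24 h. The shoot arrays of 12 h lay below those of 6 h, and the root arrays of 12 h lay just above those of 6 h. These root signals and the shoot signals of 12 h were under the floor of 20. With floored means the ratio of 12 h to 6 h was 1 in roots and 0.949 in shoots, so no difference in timing between the organs is read from them. At 3 h the change from 0.5 h and 1 h was -1.07 ± 0.15 in roots (adjusted p = 0.00021) and -1.70 ± 0.15 in shoots (adjusted p = 1.6e-07), and at 12 h it was -2.20 ± 0.15 in roots (adjusted p = 1.6e-08) and -5.77 ± 0.15 in shoots (adjusted p = 9.3e-15). With the larger pseudocount the root value at 12 h was -1.30.

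In 10 of the 18 in roots and 11 in shoots both arrays of 12 h lay above both of 6 h. The choice asked for low 6 h means, which favours this order, and no share over all probe sets was worked out. The count is therefore a description and no separate support. With floored means the root ratio of 12 h to 6 h was 1 for 261569_at and 266719_at, which are among the 10. In 262883_at the root signals were 531 and 550.1 at 0.25 h, 476 and 528 at 0.5 h, 323 and 357 at 1 h, 458 and 288 at 3 h, 247 and 160.1 at 6 h, 350.5 and 568 at 12 h, and 446 and 620.4 at 24 h. The shoot signals were 682 and 550.2 at 0.25 h, 509 and 562 at 0.5 h, 615 and 528 at 1 h, 165 and 129.9 at 3 h, 44.2 and 29.4 at 6 h, 276 and 226 at 12 h, and 723 and 799.6 at 24 h. In shoots every group from 1 h onward was separated from the next without overlap, and the 12 h arrays lay above those of 3 h. It was the 1 member of 18 called higher at 12 h than at 3 h in shoots, against a background of 9.54%, with a log2 change of 0.76 ± 0.26 (adjusted p = 0.048). That call was lost in 20 alternatives with adjusted p up to 0.294, also without either shoot array of 3 h or of 12 h. In roots 0 of 18 were called higher in limma, against 4.14%, with 1 at an unadjusted p under 0.05, and the change of 262883_at was 0.30 ± 0.26 (adjusted p = 0.56).

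In 250832_at, 12 h in shoots was the brightest of the 7 times. The root means were 649 at 0.25 h, 547 at 0.5 h, 266 at 1 h, 312 at 3 h, 156 at 6 h, 386 at 12 h, with 808 at 24 h. The shoot means were 169, 188, 155, 163, 77.4, 252 and 196 at the same times. The 12 h shoot arrays, 236 and 268, lay above every other shoot array of this probe set. No change between the tested times passed the threshold in either organ: the shoot change was 0.55 ± 0.23 at 12 h against 0.5 h and 1 h (adjusted p = 0.075) and 0.64 ± 0.26 against 3 h (adjusted p = 0.1).

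In 247232_at and 256751_at the shoot change at 3 h missed the threshold (adjusted p = 0.11 and 0.45), and the shoot signal was low at 12 h. The means of 247232_at were 59.8 at 0.5 h, 47.2 at 1 h, 37.8 at 3 h and 51.3 at 12 h in roots, and 983, 1051, 774 and 352 in shoots. From 3 h to 12 h it changed by 0.46 ± 0.20 in roots (adjusted p = 0.18) and by -1.13 ± 0.20 in shoots (adjusted p = 0.00062). The means of 256751_at at those times were 112, 137, 95.5 and 121 in roots, and 124, 139, 105 and 35.8 in shoots. Its change from 3 h to 12 h was 0.35 ± 0.26 in roots (adjusted p = 0.49) and -1.51 ± 0.26 in shoots (adjusted p = 0.00052). In roots the arrays of 3 h and 12 h overlapped for 256751_at and did not overlap for 247232_at.

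The probe set 257262_at had an early shoot peak that divides the 4 doubtful arrays. Its shoot signals were 97.7 and 70.9 at 0.25 h, 155 and 548 at 0.5 h, 572 and 135 at 1 h, 52.3 and 59.9 at 3 h, 22.4 and 20.3 at 6 h, 23 and 22.8 at 12 h, and 81.6 and 83.7 at 24 h. The 2 arrays that matched each other across the labels gave 548 and 572, and the other pair 155 and 135. In roots it had 49.6 and 51.5 at 0.5 h, 84.1 and 68.7 at 1 h, 36.8 and 34.6 at 3 h, and 29 and 26.3 at 12 h, with arrays of 3 h and 12 h below all early arrays. The change at 3 h was -0.76 ± 0.41 in roots (adjusted p = 0.31) and -2.31 ± 0.41 in shoots (adjusted p = 0.00032).

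The last of the 18 by depth, 252624_at and 267517_at, differed from each other. In 252624_at the 3 h change was -0.73 ± 0.20 in roots (adjusted p = 0.035) and -1.37 ± 0.20 in shoots (adjusted p = 5.4e-05). The root call was lost in 8 alternatives (adjusted p up to 0.247), among them without any 1 of the 6 root arrays of 0.5, 1 and 3 h. In 267517_at the root arrays of 0.25 h were 784 and 346, so the larger of them carries its place in the choice, and from 0.5 h to 12 h its root signals lay between 214 and 317. Its shoot arrays were 1752 and 744 at 0.5 h and 579 and 1964 at 1 h, and no change between the tested times passed the threshold in either organ (adjusted p from 0.117 to 0.996).

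The shoot change was more negative than the root change for most of the 18. At 12 h the root change minus the shoot change was above 0 and past the threshold for 13 of 18, against a background of 8.46%, and no member passed it in the other direction (background 7.41%, 0 at an unadjusted p under 0.05). The median difference was 1.502 on the log2 scale, beside 0.04 over all tested probe sets. At 3 h 4 of 18 passed in the same direction, against 6.39%, and none in the other (background 5.16%, 1 at an unadjusted p under 0.05), with a median difference of 0.63 beside 0.07. With 1 array left out the count at 3 h was 2 to 6, the lowest without shoots 3 h replicate 1. Dim signals lay beside this difference. At 12 h 6 of the 18 had a root array at or under the 30th percentile of its array, and 3 had such a shoot array, with percentiles from 11.3 to 15.2. Their part in the difference between the organs was not tested.

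**Figure D4:**
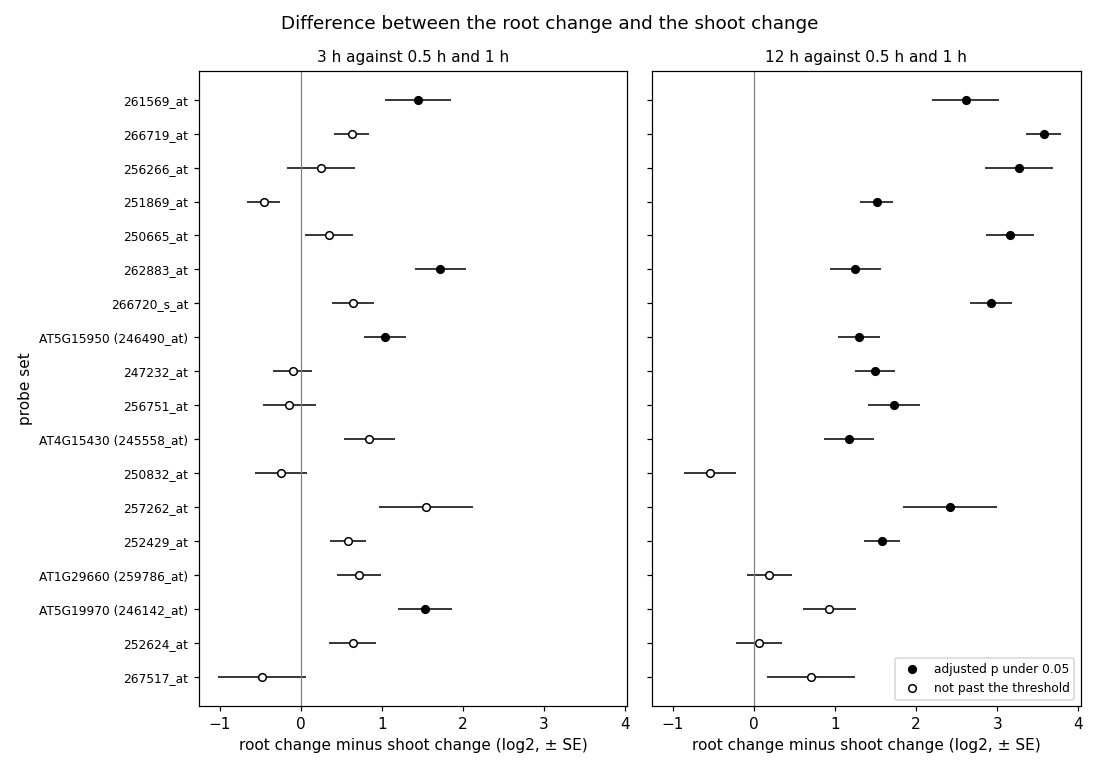
Root change minus shoot change (log2, ± SE of limma's model, 2 arrays per group) for each of the 18 probe sets, at 3 h and at 12 h, each set against 0.5 h with 1 h averaged. Filled marks have an adjusted p under 0.05, and all 4 at 3 h and all 13 at 12 h lie right of 0, where the shoot fell further than the root.

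Over the 4 times that the choice did not use, 14 of the 18 were dimmer in roots than in shoots and 4 were brighter. Over all tested probe sets 29% were called dimmer and 53.2% brighter in roots. The 4 brighter in roots were AT5G19970 (1.43 ± 0.13), 250832_at (0.95 ± 0.13), 256751_at (0.36 ± 0.13) and 262883_at (0.32 ± 0.13). The calls of 256751_at and 262883_at were lost in 5 and 7 alternatives (adjusted p up to 0.122 and 0.0903). Among the 14 dimmer in roots, 266720_s_at had -0.55 ± 0.10 and lost its call with no pseudocount (-0.33, adjusted p = 0.081). The widest gap was that of 247232_at, -3.87 ± 0.10. The median of all tested probe sets was 0.29 in this comparison and 0.17 after quantile normalization.

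None of the 4 named genes is in the lists of clock and dehydration genes. Whether any of the 14 unnamed probe sets reports a listed gene could not be checked with this annotation. The lists show what their readable genes did between the same times. Of 16 listed morning clock genes 2 could be read, AT5G52660 and AT1G69570, and both were lower at 12 h than at 0.5 h and 1 h in each organ, with adjusted p over all tested probe sets. AT1G69570, a DOF factor of the CDF family of flowering repressors, averaged 36.2, 46.3, 40.7 and 10.7 in roots and 65.8, 71.8, 53.2 and 17.4 in shoots at 0.5, 1, 3 and 12 h. At 12 h its change was -1.76 ± 0.24 in roots (adjusted p = 5.5e-05) and -1.84 ± 0.24 in shoots (adjusted p = 1.3e-05). AT5G52660, a MYB-like factor of the REVEILLE family, changed by -0.57 ± 0.16 in roots (adjusted p = 0.02) and by -0.79 ± 0.16 in shoots (adjusted p = 0.0012).

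Of 12 listed evening clock genes 3 could be read, and at 12 h against 0.5 h and 1 h they did not move one way. GI, a plant protein of the clock and of flowering time, changed at 12 h by -1.29 ± 0.24 in roots (adjusted p = 0.00084) and by -0.90 ± 0.24 in shoots (adjusted p = 0.0075). COR27, a cold-regulated repressor of the clock, rose by 1.88 ± 0.30 in roots (adjusted p = 0.00026) and by 4.95 ± 0.30 in shoots (adjusted p = 6.6e-10). Its means at 0.5 h and 1 h were 0.87 and 5.56 in roots and 0.58 and 1.87 in shoots. These lie under the lowest 30th percentile of any array, 11.3, so the size of its rise depends on the pseudocount. AT4G33980, a relative of COR27, had a change of 0.53 ± 0.41 in roots (adjusted p = 0.42) and rose by 4.26 ± 0.41 in shoots (adjusted p = 2.8e-07). Its shoot means at 0.5 h and 1 h, 2.27 and 1.51, were as dim. At 3 h 2 of the 3 evening genes were called higher in roots and 1 in shoots, and 0 lower in either organ. In shoots all 3 had their highest mean at 6 h: 517 for GI, 158 for COR27 and 177 for AT4G33980. At 12 h these shoot means were 48.1, 89.7 and 66.8. In roots the highest mean was at 3 h for GI and AT4G33980 and at 6 h for COR27. Of 16 listed genes of dehydration and abscisic acid response 5 could be read. At 12 h 2 of the 5 were lower in roots and 3 in shoots, with medians of -0.69 and -1.37, and 0 were called higher by limma in either organ, beside 7.85% and 13.2% of all tested probe sets lower. At 3 h 0 of the 5 were called in roots, and 2 were higher and 1 lower in shoots, with medians of -0.43 and 0.09. LTI30 and LEA4-5, which encode protective proteins of dry tissue, were lower at 12 h in both organs. The lists were read through 1 to 5 probe sets each, and 2 of the 17 lists had none. In the 10 further lists with any, 23 probe sets in all, 4 were lower and 3 higher at 12 h in roots and 8 lower and 5 higher in shoots. At 3 h 1 of the 23 was lower and 6 were higher in roots, and 3 were lower and 6 higher in shoots. Over all tested probe sets the shares lower and higher at 12 h were 7.85% and 10.3% in roots and 13.2% and 15.8% in shoots, and at 3 h they were 3.64% and 3.6% in roots and 13.6% and 13.4% in shoots.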

How the data were processed

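RNA of roots and shoots was measured on 28 Affymetrix ATH1 arrays, each with 1 colour. The deposited values are signal intensities per probe set on a linear scale, made with MAS5 per the submitters' processing notes (its version is not given there), and every array had a trimmed mean near 100.01, leaving out 2% at each end. No detection calls were used here. Probe sets were named only where GEO's platform annotation gave 1 gene: 13513 had 1 gene, 503 several and 8730 none. The 18 members and the gene lists were chosen with earlier results of these data known.

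Signals were taken as log2(signal + 1.93), a pseudocount equal to the 10th percentile over all arrays, and fold changes of dim probe sets are understated on that scale. After a filter that kept 18183 probe sets above the 30th percentile of the array on every array of at least 1 group and removed 4563, 1 linear model over the 14 groups was fitted with limma 3.58.1 in R 4.3.3 (lmFit, eBayes with trend, 14 residual degrees of freedom), with Benjamini-Hochberg adjustment over all tested probe sets and a threshold of 0.05. The contrasts used only the groups of 0.5, 1, 3 and 12 h, while all 28 arrays shared 1 estimate of spread. Errors printed after a change are standard errors of that model. The procedure was tested on simulated data. All members with 1 gene were to be named. The unnamed members are shown because the 4 named genes are too few to describe the group, a choice made after their values were seen. Alternatives were another pseudocount or none, other filters, quantile normalization, no variance trend, array weights, a replicate block, fewer arrays in the fit, 1 early time as reference and each array left out in turn.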

Additional observations from a re-analysis of the deposited data

Results flagged for a closer look

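The change from 0.5 h and 1 h differed between the organs for 17 combinations of probe set and time, by a test of the difference itself in limma (adjusted p under 0.05). Each value below is the root change minus the shoot change on the log2 scale, and all are above 0. At 3 h it was 1.53 for AT5G19970, 1.04 for AT5G15950, 1.45 for 261569_at and 1.72 for 262883_at. At 12 h it was 1.17 for AT4G15430, 1.29 for AT5G15950, 1.49 for 247232_at, 1.52 for 251869_at, 1.57 for 252429_at, 1.72 for 256751_at, 2.42 for 257262_at and 1.25 for 262883_at. The widest differences at 12 h were 3.57 for 266719_at, 3.27 for 256266_at, 3.16 for 250665_at, 2.92 for 266720_s_at and 2.61 for 261569_at, and each of these 5 probe sets had a root array at or under the 30th percentile of its array at 12 h. Of the 17, 6 lost the call in some alternative. At 3 h the call of 261569_at was lost in 9 alternatives (adjusted p up to 0.185), that of AT5G15950 in 3, and that of AT5G19970 with 1 h alone as the early time (1.17, adjusted p = 0.074). At 12 h those of AT4G15430 and 262883_at were lost in 3 alternatives each (adjusted p up to 0.123 and 0.111), and that of AT5G15950 in 1. For AT5G15950 the values with 1 h alone were 0.37 at 3 h and 0.63 at 12 h (adjusted p = 0.54 and 0.2).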

How the results depend on the processing

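The number of probe sets that met the rule was 18, and it was 10 with a 6 h limit of 0.4 and 9 with a 24 h limit of 0.9. Of 98 member changes past the threshold, 77 were past it in every alternative and 0 turned round. With 1 array left out, the calls were 3 to 7 (7 with all arrays) for roots at 3 h and 2 to 6 (4 with all arrays) for the root change minus the shoot change at 3 h. They were 8 to 11 for roots and 16 to 17 for shoots at 12 h, and 12 to 14 for the difference at 12 h. Roots at 3 h also gave 4 calls when only the 16 arrays of 0.5, 1, 3 and 12 h were fitted. The cause was not tested. Replicate numbers did not pair the samples: over 91 pairs of groups the correlation of deviations ran from -0.42 to 0.14, and 1 was over 0.1. The value of -0.42 was that of shoots 0.5 h with shoots 1 h, the 4 doubtful arrays. With a replicate block 7 members were called in roots and 14 in shoots at 3 h, 10 in roots and 16 in shoots at 12 h, and 6 in roots and 9 in shoots at 12 h against 3 h, where the 1 lost call was that of 262883_at (adjusted p = 0.052). Signals near the bottom of the scale limit the size of the largest changes: the 12 h change of 266720_s_at in shoots was -5.87, and it was -7.10 with no pseudocount and -3.88 with one at the 30th percentile, 13.4. For 256266_at in roots the same 3 values were -3.51, -4.21 and -2.11.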
